A study of Mus musculus with 15 samples.

Results

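Serine synthesis and folate-dependent one-carbon genes were examined in the H3K4me3 ChIP–seq peak lists of mouse brown adipocyte cells (mBA cells). The 10 genes, Phgdh, Psat1, Psph, Shmt1, Shmt2, Mthfd1, Mthfd2, Mthfd2l, Mthfd1l and Aldh1l2, were taken by name from the 78289 genes (21770 protein-coding) of the GENCODE M39 annotation. A peak belonged to a gene when at least 1 bp of it fell within 2000 bp on either side of any annotated transcript start, and is called a promoter peak below. H3K4me3, trimethylation of histone H3 at lysine 4, is the histone mark found around the starts of active and poised genes.

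The mBA cells had been differentiated and were in 3 conditions: untreated WT, WT + 2HG (WT cells given 500 µM octyl d-2HG, a cell-permeable ester of d-2-hydroxyglutarate, in DMSO for 72 h) and CLPP-KO cells, which lack the mitochondrial matrix protease CLPP. The study describes the cells as brown preadipocytes of newborn mice immortalized with the SV40 large T antigen, whereas the labels call them primary, and all were kept in high-glucose medium lacking pyruvate. Only the CLPP-KO cells had added uridine, and the labels give no treatment, DMSO included, for the WT and CLPP-KO groups. The study derived the WT and CLPP-KO cells from different mice, control and knockout. Effects of the genotype, of this separate derivation and of uridine cannot be told apart, nor those of octyl d-2HG and DMSO. Each condition had 4 ChIP samples and 1 input sample. Peak calling by the authors combined the 4 replicates, which leaves 1 list per condition. The replicate spread is therefore unknown, and differences between conditions are described without a test.

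Newly made serine comes from the glycolytic intermediate phosphoglycerate through PHGDH, PSAT1 and PSPH. Serine hydroxymethyltransferases then pass a carbon of serine to tetrahydrofolate, in the cytosol by SHMT1 and in mitochondria by SHMT2. The mitochondrial enzymes MTHFD2, MTHFD2L and MTHFD1L carry that unit on to formate, which cytosolic MTHFD1 takes up again for purine, thymidylate and methionine synthesis, and ALDH1L2 oxidizes it instead to carbon dioxide. Many of these genes are known targets of ATF4, the transcription factor of the integrated stress response, which mitochondrial damage can switch on.

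Promoter sequences are shown because the peaks stood in very different positions relative to them: outside the peaks of every list at Phgdh, Shmt1 and Shmt2, at the peak edge at Mthfd1 and Mthfd2, and mostly outside the WT peak but inside the others at Psat1. The 110 bases before the RefSeq start are given 5′ to 3′ on the gene's strand, with capitals marking CCAAT (the NF-Y box) or GGGCGG (the GC box) on either strand. The sequences are those of RefSeq (table build GRCm38.p6). All 10 promoters that the table holds for 9 of the 10 genes had a single exact match in GRCm39, and the coordinates below are of GRCm39.
Phgdh chr3:98247286-98247395 minus strand: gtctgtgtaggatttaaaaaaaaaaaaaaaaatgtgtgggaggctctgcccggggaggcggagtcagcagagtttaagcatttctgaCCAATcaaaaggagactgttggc
Psat1 chr19:15902424-15902533 minus strand: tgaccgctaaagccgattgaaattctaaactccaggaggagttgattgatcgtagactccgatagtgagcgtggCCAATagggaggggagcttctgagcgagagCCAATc
Mthfd2 chr6:83294587-83294696 minus strand: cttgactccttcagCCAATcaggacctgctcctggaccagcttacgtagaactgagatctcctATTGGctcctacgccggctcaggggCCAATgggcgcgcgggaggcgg
Mthfd1 chr12:76301896-76302005 plus strand: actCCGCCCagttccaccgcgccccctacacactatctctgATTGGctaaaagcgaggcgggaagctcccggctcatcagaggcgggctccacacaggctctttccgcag
Shmt1 chr11:60702092-60702201 minus strand: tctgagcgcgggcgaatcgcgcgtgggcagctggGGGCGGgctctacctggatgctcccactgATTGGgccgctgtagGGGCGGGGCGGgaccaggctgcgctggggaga
Shmt2 chr10:127358314-127358423 minus strand: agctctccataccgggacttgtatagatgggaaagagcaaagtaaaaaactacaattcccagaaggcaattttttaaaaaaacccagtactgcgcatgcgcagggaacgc

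In the whole RefSeq window, from 250 bases before to 50 bases after the start, CCAAT occurred in 6 of the 10 promoters, against 37.4% of all 32851 promoters, and GGGCGG in 6, against 35.7%. Phgdh had 2 CCAAT boxes and Mthfd2 had 3. The first Psat1 promoter also had 3 CCAAT boxes, and a second Psat1 promoter, which starts 437 bp further into the gene, had none and carried 2 GC boxes. Neither motif was found at Shmt2. TGATGNAA, the CARE (the amino acid response element bound by ATF4), occurred in 0 of the 10 and in 3.97% of all promoters, TGACGTCA (the cyclic AMP response element) in 0 and 1.79%, and CACGTG (the E-box) in 0 and 7.15%. All motifs were searched on both strands, and none of the letter strings contains another.

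A wider window of 500 bp on either side of the canonical start, read from GRCm39, held TGATGNAA in 2 of the 10 genes and in 10.7% of the 21770 protein-coding genes. At Mthfd2 the match was TGATGAAA at chr6:83294162-83294169, on the gene's strand and in an intron, 435 bp into the gene and inside the H3K4me3 peak of all 3 lists. The Shmt2 match, TGATGCAA at chr10:127357826-127357833, lay 488 bp into the gene, also in an intron, and in the peak of no list. A match describes letters in a window and not a bound site.

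Most of the 10 genes carried H3K4me3 in every condition. Promoter peaks were present at 8 of 10 genes for WT, 9 for WT + 2HG and 8 for CLPP-KO, while 51.3, 56.4 and 58.2% of protein-coding genes had one. The same 8 genes were marked in all 3 lists. The exceptions were both serine hydroxymethyltransferases. The lists held 12342 peaks for WT, 14059 for WT + 2HG and 15118 for CLPP-KO.

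Strength is given as a percentile, the share of a list's peaks whose area under the curve is at or below that of the gene's strongest promoter peak. The median over the marked genes was 62.1 (WT, 8 genes), 57.6 (WT + 2HG, 9 genes) and 64.0 (CLPP-KO, 8 genes), and over all marked protein-coding genes 59.3, 60.6 and 62.0. Only the WT + 2HG median includes Shmt2, so the medians are not over the same genes. In WT the lowest gene was Aldh1l2 (13.3) and the highest Psph (78.6). The corresponding genes of WT + 2HG were Shmt2 (13.6) and Phgdh (79.4), and those of CLPP-KO were Aldh1l2 (33.1) and Mthfd1l (72.2). A longer list that adds weak peaks raises the percentile of every stronger peak. The percentile was therefore also taken among only those peaks that overlap a peak of both other lists (11842, 11332 and 11314 peaks). Where 3 values follow each other without a name, they are in the order WT, WT + 2HG and CLPP-KO.

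**Figure D1:**
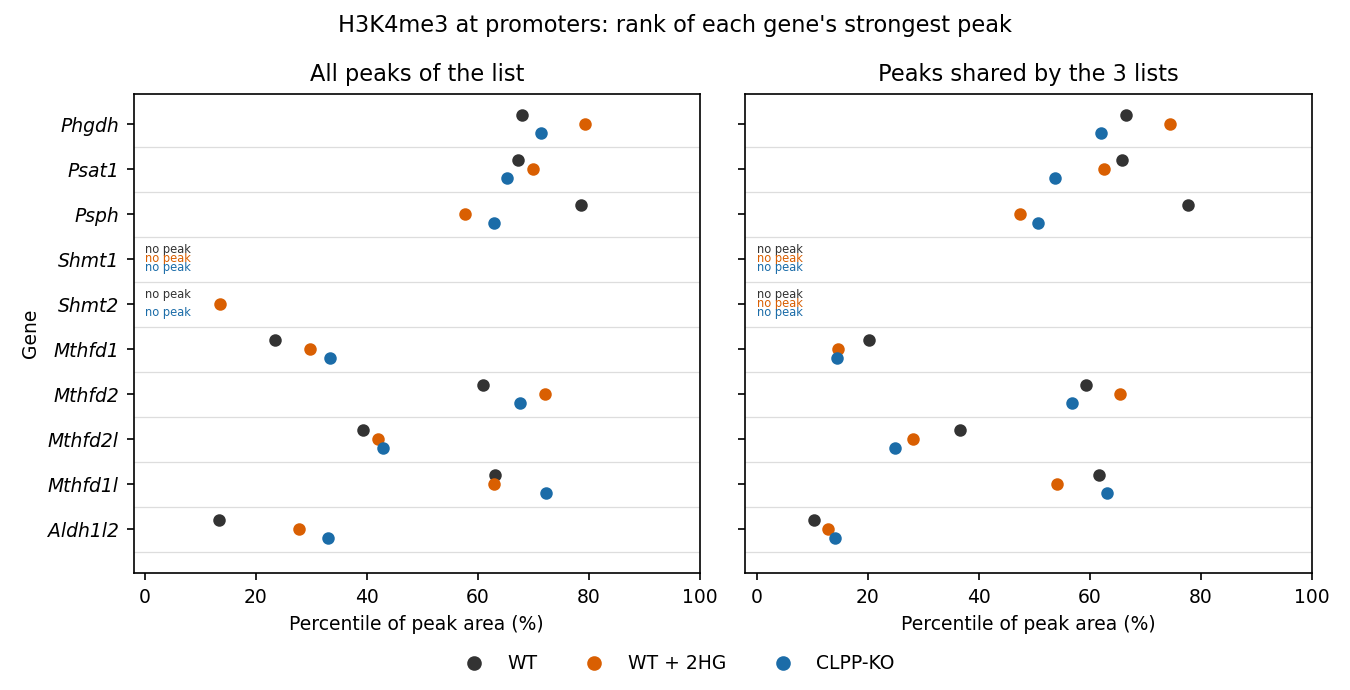
Percentile of peak area (x axis, %) of the strongest promoter peak of each gene (y axis) in WT, WT + 2HG and CLPP-KO, among all peaks of the list (left) and among peaks shared by the 3 lists (right). Each point is 1 pooled peak list, so there are no error bars. Psph stands at 78.6 in WT and at 57.6 and 62.9 in the other lists, Shmt1 has no peak, and Aldh1l2 stands at 13.3 in WT and 33.1 in CLPP-KO among all peaks but at 10.3 and 14.2 among shared peaks.

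By area, the serine synthesis genes were the most strongly marked group in WT, with Psph, Phgdh and Psat1 holding the highest percentiles of the 10 genes. Other measures gave a different order in WT. Ranked by summit p, Mthfd2 (71.8) and Mthfd1l (58.3) stood above Phgdh (56.7), and ranked by width Mthfd1l (60.7) stood above Psph (57.4). Phgdh encodes phosphoglycerate dehydrogenase, which commits carbon to serine. It had a percentile of 67.9 for WT (95% Wilson interval 67.1 to 68.7), 79.4 for WT + 2HG (78.7 to 80.0) and 71.5 for CLPP-KO (70.7 to 72.2). These intervals, like all intervals here, cover counting error over the peaks of a list only. Differences above WT as large or larger were found in 28.1% (WT + 2HG) and 55.6% (CLPP-KO) of protein-coding genes marked in both lists. Among shared peaks Phgdh stood at 66.5, 74.4 and 62.0, so that by area it ranked above WT in WT + 2HG on both scales and in CLPP-KO only on the first. Ranked by summit p it stood at 56.7, 84.8 and 74.7, and by width at 84.7, 69.4 and 76.9. The order of Phgdh against WT thus depends on the measure. Its peak was narrower in both lists than in WT, with 1335 bp for WT, 1142 bp for WT + 2HG and 1260 bp for CLPP-KO.

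The Phgdh peak lay entirely inside the gene. Phgdh is on the minus strand of chromosome 3 with its canonical start at 98247306, and the peaks spanned 98245866 to 98247200 (WT), 98246079 to 98247220 (WT + 2HG) and 98245893 to 98247152 (CLPP-KO). One annotated Phgdh start lay inside the peak in WT and WT + 2HG and none in CLPP-KO. The peaks began 106, 86 and 154 bp downstream of the canonical start and had their summits in an intron, 763, 705 and 705 bp into the gene. None of the 300 bases of the RefSeq promoter, whose upstream part is printed above, fell in a peak of any list. A strongest peak wholly downstream of the canonical start occurred at 2 of the 8 marked genes for WT (Phgdh and Psat1), 3 of 9 for WT + 2HG (Phgdh, Shmt2 and Mthfd1) and 1 of 8 for CLPP-KO (Phgdh), and at 38.2, 23.7 and 24.6% of marked protein-coding genes. The peak had a GC content of 57.8% in WT, below the median of 63.0% over the WT peaks.

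Of 11020 other protein-coding genes marked in every list, Pi4ka and Snap29 were nearest to Phgdh in their 3 percentiles. They share a single promoter peak, at 67.7, 78.9 and 70.2, which gives a summed absolute difference of 1.98 points. Virma came next with 66.0, 79.3 and 71.6, a summed difference of 2.09. The likeness rests on 3 values per gene.

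Psat1, the phosphoserine aminotransferase of the second step, had a wider peak outside WT. Its percentile was 67.3 (WT), 69.9 (WT + 2HG) and 65.2 (CLPP-KO), and its peak measured 1061, 1454 and 1646 bp. The summit lay 329, 329 and 342 bp into the gene. The upstream edge differed more, as the WT peak began 28 bp downstream of the canonical start, at 15902395 on the minus strand of chromosome 19, and the others began at −541 and −352 bp, upstream of it. Of the 300 bases of the first promoter, 22 lay in the WT peak and all 300 in each of the other peaks. The second promoter lay in the peak of every list. Among shared peaks Psat1 was lower outside WT, at 65.9, 62.6 and 53.7. Ranked by summit p in place of area, Psat1 was also lower, at 90.3, 69.4 and 67.1, so its order against WT depends on the scale.

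Psph, which encodes the phosphoserine phosphatase of the last step, had the largest difference below WT of the 10 genes when ranked by area. It stood at 78.6 for WT (77.9 to 79.3), 57.6 for WT + 2HG (56.8 to 58.4) and 62.9 for CLPP-KO (62.1 to 63.7), and at 77.7, 47.4 and 50.6 among shared peaks. Against WT the difference was −21.0 points (WT + 2HG) and −15.7 points (CLPP-KO), and 1.40% and 2.48% of protein-coding genes marked in both lists had differences as low or lower. Both differences use the same WT list. Ranked by summit p Psph was also lower outside WT, at 91.6, 69.3 and 68.0. By width it was higher, at 57.4, 73.7 and 69.4, so its order against WT depends on the measure. The peak was wider outside WT, with 896 bp for WT, 1216 bp for WT + 2HG and 1123 bp for CLPP-KO. It covers the starts of Psph and of the divergent gene Cct6a, a subunit of the TRiC chaperonin, so the values belong to both.

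A further Psph peak was present in both the WT + 2HG and the CLPP-KO list and overlapped no WT peak. It was found at chr5:129855782-129856357 in WT + 2HG (576 bp, percentile 17.4) and at chr5:129855862-129856341 in CLPP-KO (480 bp, percentile 13.2). Its summits lay in an exon 8443 and 8382 bp downstream of the canonical start, and it held 2 annotated Psph starts, of a coding transcript and of a retained-intron transcript. With it, the summed width of the Psph promoter peaks was 896, 1792 and 1603 bp. The CLPP-KO peak is lost when a summit p of at most 1e-05 is required and also when the lists are cut to equal size by area, which leaves a width of 1123 bp, whereas the WT + 2HG peak is retained in both settings. Of the 8 marked genes Psph was the only gene with such a further peak, and 4.05% of protein-coding genes marked in every list had one.

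Neither serine hydroxymethyltransferase gene had a promoter peak in WT. Shmt1, the cytosolic enzyme, was in no list, like 40.6% of protein-coding genes, and the nearest peak lay 19.4, 19.4 and 19.5 kb from its canonical start in WT, WT + 2HG and CLPP-KO. Its promoter, with 1 CCAAT and 4 GC boxes, had as many matches as that of Psph, some of them overlapping. Shmt2, the mitochondrial enzyme, had promoter peaks only in WT + 2HG, which was so for 0.891% of protein-coding genes. They were small: chr10:127356469-127357311 had a percentile of 13.6 and a summit −log10 p of 4.48, and chr10:127357932-127358167 a percentile of 1.88 and 3.48. No annotated Shmt2 start lay inside either, neither overlapped a peak of both other lists, and both are lost when a summit p of at most 1e-05 is required. In WT the nearest peak was 10.1 kb from the canonical Shmt2 start and in CLPP-KO 3.80 kb. A gene missing from a list has no called peak, which does not show that the mark is absent, and in bulk chromatin fewer marked cells and less mark per cell cannot be told apart.

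**Figure D2:**
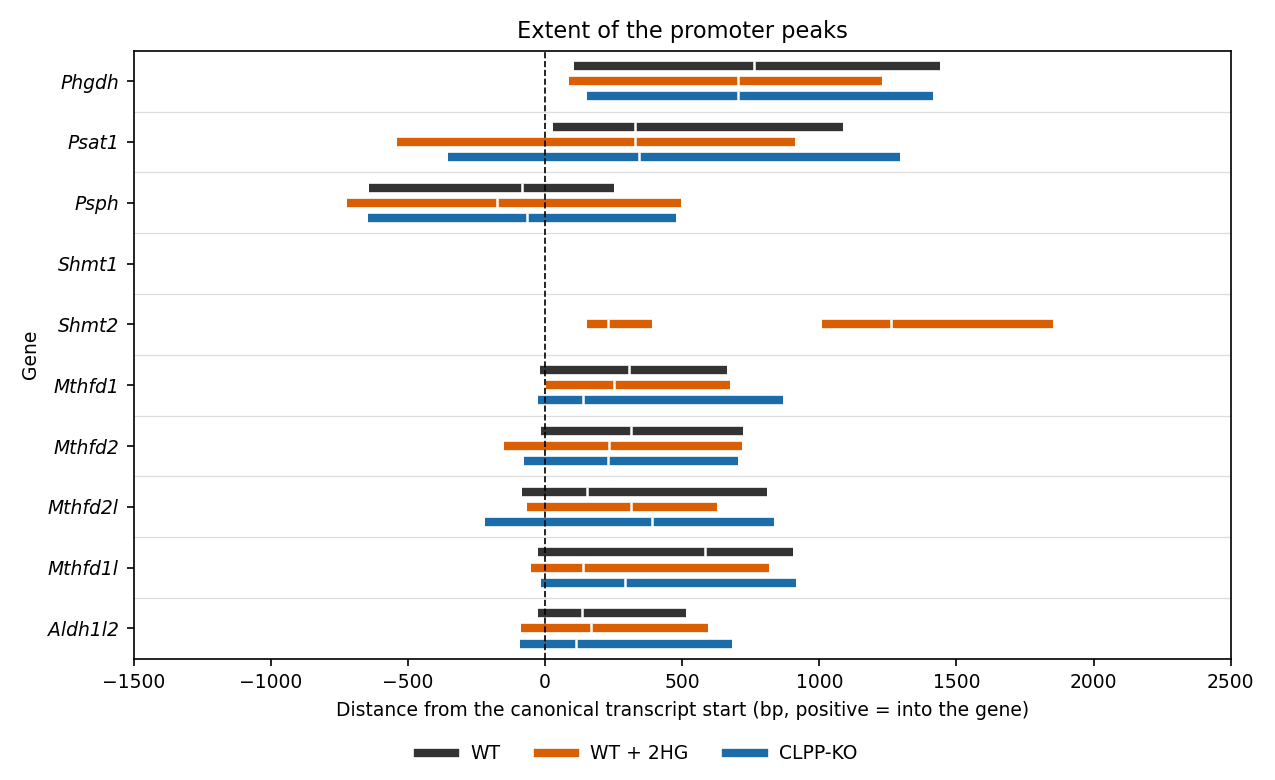
Position of the promoter peaks (horizontal bars) relative to the canonical transcript start (dashed line), in bp with positive values into the gene, for each gene and list, with white ticks at the summits. The Phgdh bars begin 86 to 154 bp inside the gene, the Psat1 bar extends upstream of the start in WT + 2HG and CLPP-KO only, and Shmt2 has bars in WT + 2HG alone. The further Psph peak and the outer Mthfd2 peak lie outside the range drawn.

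Mthfd2, Mthfd2l, Mthfd1l and Aldh1l2 are the mitochondrial genes that act after SHMT2. By area, Mthfd2 and Mthfd1l ranked highest of these and Aldh1l2 lowest in every list. Ranked by width, Mthfd2l stood above Mthfd2 in WT (57.1 against 41.0). In CLPP-KO it stood above Mthfd2 and Mthfd1l by width (65.0 against 41.8 and 55.8). Mthfd2, a methylenetetrahydrofolate dehydrogenase and cyclohydrolase that is high in embryonic and proliferating cells, had percentiles of 60.9 (WT), 72.1 (WT + 2HG) and 67.5 (CLPP-KO), and of 59.3, 65.5 and 56.8 among shared peaks. Among all peaks, differences above WT as large or larger were found in 28.8% (WT + 2HG) and 45.8% (CLPP-KO) of protein-coding genes. The main peak of Mthfd2 measured 739, 869 and 782 bp with its summit 315, 235 and 229 bp into the gene. It covered the canonical start in every list and 83, 217 and 145 of the 300 promoter bases, so that its upstream edge fell within the printed stretch in WT and CLPP-KO and before it in WT + 2HG.

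A second peak assigned to Mthfd2 lay at its outermost annotated start, with summits at −8782, −8565 and −8547 bp from the canonical start. It measured 607, 872 and 971 bp at percentiles of 33.7, 60.7 and 54.1. The start of Mob1a, a component of the Hippo kinase pathway, lies inside this peak in all lists, and a Mthfd2 start lies inside only in WT + 2HG and CLPP-KO. The peak cannot be assigned to 1 of the genes.

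Mthfd2l, the paralogue of Mthfd2 with the same activities, was marked less strongly by area. Its percentile was 39.2 (WT), 42.0 (WT + 2HG) and 42.9 (CLPP-KO), and 36.7, 28.3 and 25.0 among shared peaks. The peak measured 893, 693 and 1053 bp and covered the canonical start in each list. Its GC content of 66.3, 70.0 and 62.5% was above the list median in WT (63.0%) and WT + 2HG (62.9%) and below it in CLPP-KO (63.1%).

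Mthfd1l encodes the formyltetrahydrofolate synthetase that releases formate in mitochondria. Its percentile was 63.2 (WT), 62.9 (WT + 2HG) and 72.2 (CLPP-KO), and 61.6, 54.0 and 63.1 among shared peaks. By area it was thus the gene that ranked above both other lists in CLPP-KO on both scales, together with Aldh1l2. Ranked by width, Mthfd1l stood at 60.7, 48.4 and 55.8, below WT in CLPP-KO. Differences above WT as large or larger in CLPP-KO were found in 39.0% of protein-coding genes among all peaks and 37.6% among shared peaks. The peak measured 930, 868 and 931 bp and covered the canonical start in each list, while the summit lay 582, 138 and 290 bp into the gene.

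Aldh1l2, the mitochondrial formyltetrahydrofolate dehydrogenase, had the weakest peak of the 8 genes in WT. The percentile was 13.3 for WT (12.7 to 13.9), 27.9 for WT + 2HG (27.1 to 28.6) and 33.1 for CLPP-KO (32.3 to 33.8), the largest difference above WT among the 10 genes in both comparisons when all peaks are ranked by area. Differences of this size or more, 14.5 and 19.8 points, were found in 21.9 and 16.1% of protein-coding genes. Among shared peaks the percentiles were 10.3, 12.8 and 14.2, and the difference of 2.44 points in WT + 2HG was smaller than those of Phgdh (7.89) and Mthfd2 (6.18). The width was 539, 685 and 772 bp, and the summit −log10 p was 3.92, 8.44 and 9.75, so that the same requirement removes the WT peak.

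Mthfd1, the trifunctional cytosolic enzyme, was also weakly marked. It had percentiles of 23.4, 29.8 and 33.4 in WT, WT + 2HG and CLPP-KO, but 20.3, 14.6 and 14.6 among shared peaks, so the direction turned with the scale. Its peak measured 683, 674 and 896 bp and began within 27 bp of the canonical start in every list. The start of the long non-coding RNA Gm47525 lies in the same peak.

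Across the 8 genes marked in both lists, the percentile was higher than in WT at 6 in WT + 2HG (all but Psph and Mthfd1l) and at 6 in CLPP-KO (all but Psat1 and Psph), against 64.4 and 69.8% of protein-coding genes. The median difference was 4.54 and 5.12 points for the 8 genes and 3.69 and 5.27 for protein-coding genes. Among shared peaks, the percentile was higher at 3 genes in WT + 2HG (Phgdh, Mthfd2 and Aldh1l2) and at 2 in CLPP-KO (Mthfd1l and Aldh1l2), against 44.7 and 43.3%, with median differences of −4.46 and −5.10 for the 8 genes and −1.21 and −1.51 for protein-coding genes. By area, Aldh1l2 was the single gene that was higher in both comparisons on both scales. Psph was the single gene that was lower in both on both scales, though by width it ranked above WT in both lists. The WT list is common to both comparisons.

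**Figure D3:**
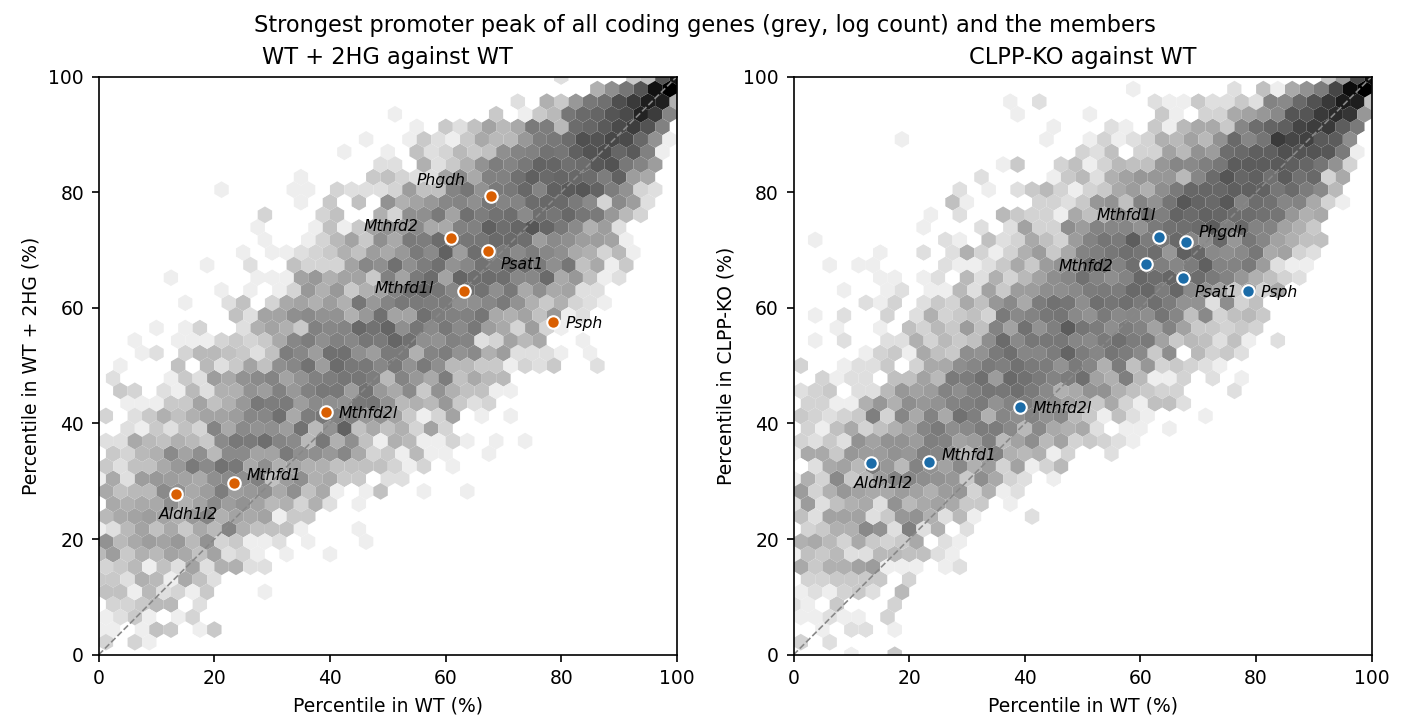
Percentile of the strongest promoter peak in WT (x axis, %) against WT + 2HG (left) and CLPP-KO (right, y axes, %), with all protein-coding genes marked in every list as grey hexagons (darker for more genes, log scale), the 8 genes as coloured points and equality as a dashed line. Psph lies below the line in both panels, at 57.6 and 62.9 against 78.6 in WT, and 6 of the 8 genes lie above it in each panel.

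Widths differed between the comparisons. The summed width of the promoter peaks was larger than in WT at 4 of the 8 genes in WT + 2HG and at 7 in CLPP-KO, against 73.3 and 72.7% of protein-coding genes. The genes wider in WT + 2HG were Psat1, Psph, Mthfd2 and Aldh1l2, by 393, 896, 395 and 146 bp. In CLPP-KO these 4 genes were wider by 585, 707, 407 and 233 bp, Mthfd1 and Mthfd2l by 213 and 160 bp, Mthfd1l by 1 bp, and Phgdh was narrower by 75 bp. For Mthfd2 these sums include the outer peak that holds the Mob1a start, and its main peak alone measured 739, 869 and 782 bp. The median difference was 68.5 bp (WT + 2HG) and 223 bp (CLPP-KO), beside 110 and 105.5 bp for protein-coding genes. The strongest peak covered the canonical start at 6 of 8 genes for WT, 6 of 9 for WT + 2HG and 7 of 8 for CLPP-KO, against 52.6, 68.2 and 67.3%.

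The other genes of serine, glycine, folate and methionine metabolism were taken as a list of 45. Promoter peaks were present at 31 of them for WT, 30 for WT + 2HG and 32 for CLPP-KO, with median percentiles of 52.2, 60.6 and 54.9. The shares of protein-coding genes with a peak were 51.3, 56.4 and 58.2%. The percentile was higher than in WT at 19 of the 30 genes marked in both WT and WT + 2HG and at 20 of 31 in CLPP-KO, beside 64.4 and 69.8% of protein-coding genes. Among shared peaks it was higher at 12 of 30 and 11 of 30, beside 44.7 and 43.3%. Only Gnmt and Cth differed in presence between lists. Gnmt, a glycine methyltransferase best known from liver, had a peak in CLPP-KO alone (390 bp, percentile 9.80). Cth, the cystathionine lyase of cysteine synthesis, had one in WT (462 bp, percentile 0.754) and in CLPP-KO (237 bp, percentile 11.0) and none in WT + 2HG.

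In none of the lists were 13 of the 45 genes. They were the serine dehydratases Sds and Sdsl, the serine carrier Sfxn3, the glycine cleavage gene Amt, the folate receptors Folr1 and Folr2, the folate enzymes Aldh1l1 and Ftcd, all 3 genes of the choline oxidation branch (Dmgdh, Sardh and Bhmt), the liver-type methionine adenosyltransferase Mat1a, and Atf4. For Atf4 the nearest peak lay 80.7, 80.4 and 32.4 kb from the canonical start in WT, WT + 2HG and CLPP-KO. Atf4 is known to be transcribed in most cell types, and its absence from a list is not a measure of its expression.

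**Figure D4:**
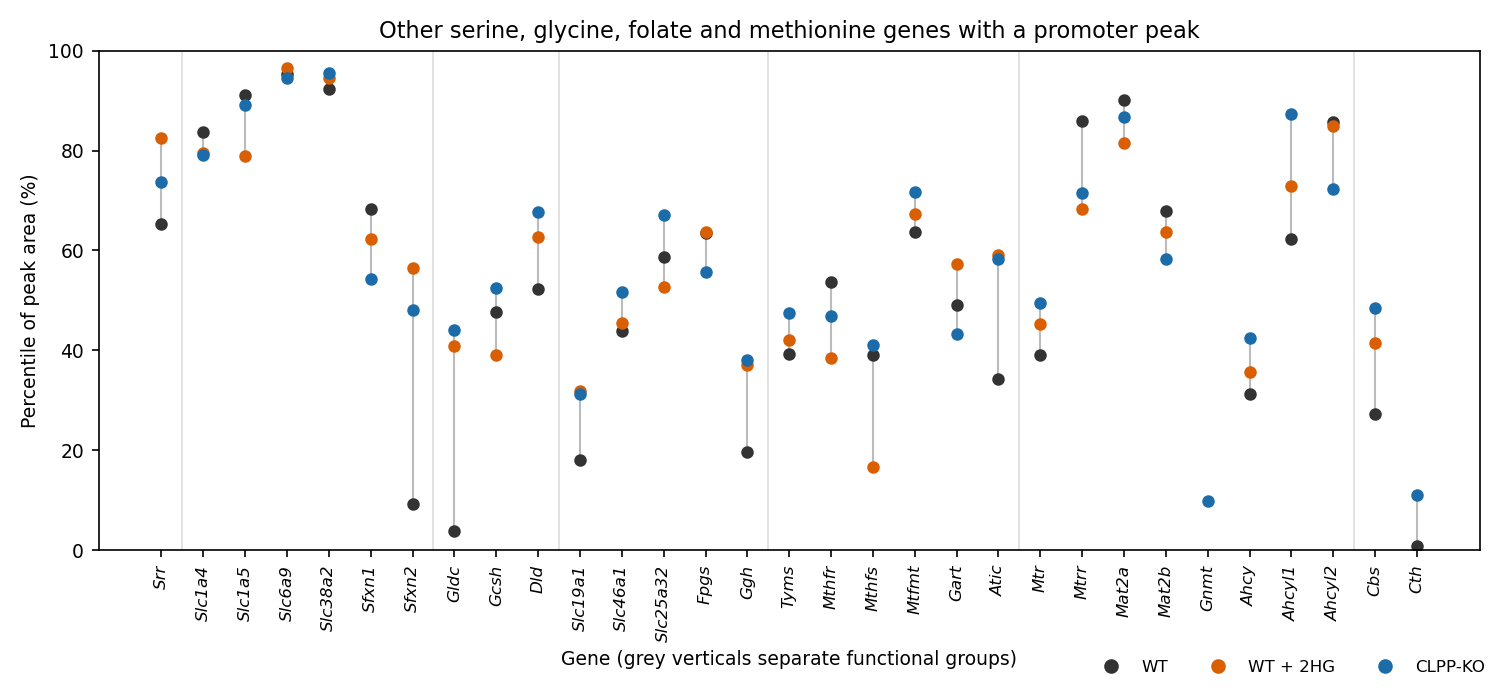
Percentile of the strongest promoter peak (y axis, %) in WT, WT + 2HG and CLPP-KO for 31 of the 32 other genes of the pathway with a peak in any list, grouped by function, each point 1 pooled list. Gnmt has a point in CLPP-KO alone, Cth has none in WT + 2HG, and the widest spans, at Sfxn2 and Gldc, run from 9.20 and 3.89 in WT to 56.6 and 44.0.

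Clpp, the targeted gene, had a promoter peak in all lists at percentiles of 39.9, 45.2 and 43.4, which does not check the knockout, since a promoter can stay marked when a coding part is deleted. Of 6 adipocyte markers, promoter peaks were found at 2 for WT (Pparg and Cebpa), 4 for WT + 2HG and 4 for CLPP-KO (these and Plin1 and Lpl), and Fabp4 and Adipoq had none. Of 8 brown adipocyte markers 1, 2 and 3 had a peak (Prdm16 in all lists), and Ucp1, the uncoupling protein that defines brown fat, had none. Stromal markers had a peak at 2, 1 and 2 of 3, macrophage markers at 0 of 3, endothelial markers at 1 of 3 (Kdr), and muscle markers at 0, 0 and 1 of 3 (Myod1 in CLPP-KO). More adipocyte and brown adipocyte markers thus had a peak in WT + 2HG and CLPP-KO than in WT. The share of all protein-coding genes with a peak was also higher, at 51.3, 56.4 and 58.2%. Those adipocyte and brown adipocyte peaks absent from WT stood at percentiles of 21.0 to 32.8 in WT + 2HG and 22.2 to 47.2 in CLPP-KO. The part of this marker difference in the values of the 10 genes was not tested.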

How the data were processed

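H3K4me3 ChIP–seq was performed in 12 samples with 3 inputs. The submitters' processing notes name fastp 0.23.4, BWA 0.7.17, Genrich 0.6.1 and deepTools 3.5.4. The authors aligned trimmed reads against GRCm39, ran Genrich once per condition over its 4 replicates, and deposited the 3 resulting lists. Each deposited peak has a signal (area under the curve) and a −log10 p-value at its summit. The q field is −1 throughout and was not used. The area is not scaled between lists, so only its percentile within a list was compared. The lists hold no read counts, so depth was not measured here, and Wilson intervals cover counting error over peaks only. Up to 217 peaks of a list lay on contigs named otherwise than in the reference and were kept in the ranking.

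Starts came from GENCODE M39, with a window of 2000 bp and an overlap of at least 1 bp. The code was tested on simulated peaks and against bedtools 2.31.1. Python 3.11.15, numpy 2.4.6 and matplotlib 3.10.9 were used. The members, gene lists and motifs were chosen with earlier results of these data known. All 10 genes were named, and of the pathway list the genes in some or no lists and Atf4, besides Clpp and the 3 coding genes nearest to Phgdh by summed absolute percentile difference. Alternatives changed the window, the starts, the summit, the p threshold, the list size, shared peaks and the ranking measure. The transcriptomes were not used here, and 1 gene of the pathway list enters the counts but is not reported here.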

Additional observations from a re-analysis of the deposited data

How the results depend on the processing

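For the 10 genes, presence of promoter peaks, percentiles and summed widths were the same with windows of 1000 or 3000 bp, with coding transcripts only and with summits required in the window. With 3000 bp the marked pathway genes were 32, 31 and 33 of 45. With a summit p of at most 1e-05 the median percentiles were 56.4, 54.9 and 57.8 in WT, WT + 2HG and CLPP-KO, and the peaks of Aldh1l2 in WT and Shmt2 in WT + 2HG and the further Psph peak in CLPP-KO were lost. Equal-sized lists also lost that Psph peak. Ranked by summit p the medians were 57.5, 62.8 and 67.6, and by width 57.3, 48.4 and 60.4. Among peaks shared by all lists they were 60.5, 50.7 and 52.2. In lists cut to equal size by area WT + 2HG had 51.7 and CLPP-KO 56.0. The WT + 2HG medians include Shmt2 except under the p requirement and among shared peaks. The number of genes ranked above WT was 3 rather than 6 for WT + 2HG and 2 rather than 6 for CLPP-KO in equal-sized lists, and likewise among shared peaks. Both settings take weak peaks out of the longer lists by construction. No paired analysis was possible because each deposited list pools the 4 replicates, and for the same reason no replicate could be left out.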

Other observations

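Sfxn2 and Gldc were picked out after their values were seen. Sfxn2, a mitochondrial sideroflexin, had a promoter peak at a percentile of 9.20 for WT, 56.6 for WT + 2HG and 48.0 for CLPP-KO, with widths of 627, 1470 and 1584 bp. Gldc, the glycine decarboxylase of the glycine cleavage system, stood at 3.89, 40.8 and 44.0, with widths of 217, 751 and 777 bp. With all peaks ranked, the 2 genes stood further above WT in both lists than any of the 8 marked serine and one-carbon genes. Since the 2 genes were picked out from these same values, that comparison is not a test. The share of protein-coding genes with differences as large is not given. The WT peaks of Sfxn2 and Gldc were weak. Aldh1l2, also weak in WT, was 14.5 (WT + 2HG) and 19.8 points (CLPP-KO) above WT among all peaks, but 2.44 and 3.87 among shared peaks. For Sfxn2 and Gldc the percentiles among shared peaks are not given. Of the 45 genes, the other sideroflexin and glycine cleavage genes with a peak differed less. Sfxn1 stood at 68.3, 62.3 and 54.2, Gcsh at 47.7, 39.0 and 52.4, and Dld at 52.2, 62.8 and 67.7. Sfxn3 and Amt had no peak in any list.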
